A study of Mus musculus with 5 samples.

Results

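The 129 and the CAST chromosomes of a hybrid mouse embryonic stem cell line were compared in their contacts with a 4C bait in the Dppa2/4 domain of chromosome 16, within that chromosome (cis) and with the other autosomes (trans). All 5-kb windows of chromosomes 1 to 19 more than 50 kb from the bait were used, which are 492523 of the 545079 windows in the table. Of these, 19622 lay on chromosome 16 and 472901 on the 18 other autosomes. The series holds 5 samples. The 2 used here are clones A6 and E2 of a Cas/129 hybrid line grown in DMEM with 2i plus LIF. Both carry CRISPR deletions of the same 3 intervals on chromosome 16. No hybrid clone without the deletions was analysed here, so the strain of an allele and the deletions it carries cannot be told apart. Each library was split by the authors into a 129 column and a CAST column, so the alleles are compared within a clone, and the 2 clones are the replicates. The sources used here do not say whether the clones come from separate transfections, so the spread between them may be partly technical.

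4C-seq cuts fixed chromatin with a restriction enzyme, ligates ends that lie close together, and reads out by inverse PCR every fragment joined to 1 chosen viewpoint. Contacts fall steeply with distance along the chromosome of the viewpoint, and a chromosome's own territory is sampled more densely than other chromosomes. The share of reads in cis is therefore a common measure of how a library samples its own chromosome. Dppa2 and Dppa4 encode chromatin-binding proteins of pluripotent cells, and the study deals with sequence elements that set when and where DNA replicates.

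The primers that the sample labels list for the bait of the hybrid clones are shown, and they were taken as those of the viewpoint. The extraction protocol in the labels names other primers. The sequences were not placed on the genome, so the position of the bait was not checked against them. HindIII cuts at AAGCTT and DpnII at GATC. Capitals mark the last 4 bases of the forward primer, which equal the start of a HindIII site. The reverse primer holds no GATC.
Forward primer: tttgggattttggagtgAAGC
Reverse primer: ctgctggacttgtcaactgaa

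The bait sits in a gap of 50 kb without windows, at chr16:48320001-48370000 (mm10). No protein-coding gene of the annotation overlaps this gap. Dppa2 (48310274 to 48319513) ends 25.5 kb before its centre, Dppa4 (48283735 to 48294292) ends 50.7 kb before it, and Morc1 (48431237 to 48630905), a germline gene of transposon silencing, starts 86.2 kb after it.

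The deletions were checked first. In the second labelled interval (48396806 to 48437301, over the start of Morc1) the 129 columns held 26 and 67 recovered reads in A6 and E2, against 12236 and 18179 in the CAST columns. In the last one (48581359 to 48620367, inside Morc1) they held 1 and 6 against 6766 and 12501. Reads were therefore nearly absent on 129 and present on CAST in both clones. The first interval (48308399 to 48311882, over Dppa2) held at most 2 reads in any column and could not be checked. The columns rested on 1937280 and 2397572 reads for 129 and on 1311580 and 1603247 for CAST, in A6 and E2. The intervals given on reads cover counting error only: no molecular identifiers were used, so PCR copies count as separate reads.

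The windows that held reads differed more between the alleles of 1 clone than between clones. In trans, A6 had reads in 33327 windows on 129 and in 21171 on CAST, and 5799 windows were shared, which is 17.4% of the first and 27.4% of the second. E2 had 34545 and 21710, with 6479 shared, or 18.8% and 29.8%. Between the clones, 28127 windows were shared on 129 (84.4% of A6 and 81.4% of E2) and 19114 on CAST (90.3% and 88.0%), and these held over 99% of the trans reads of each column (99.3% to 99.5%). In cis the alleles shared more: 1523 windows in A6, or 43.6% of 129 and 58.2% of CAST, and 1599 in E2, or 45.2% and 59.4%. A bin can thus be filled on 1 allele in both clones from windows that give no reads on the other. Whether such a bin differs in contacts or in which windows can be read was not tested. Whether an allele was assigned from the bait or from the captured fragment is not given in the sources used here. If it was the captured fragment, a trans value of the 129 column counts the 129 copy of that chromosome and may come from the bait on either allele.

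**Figure D1:**
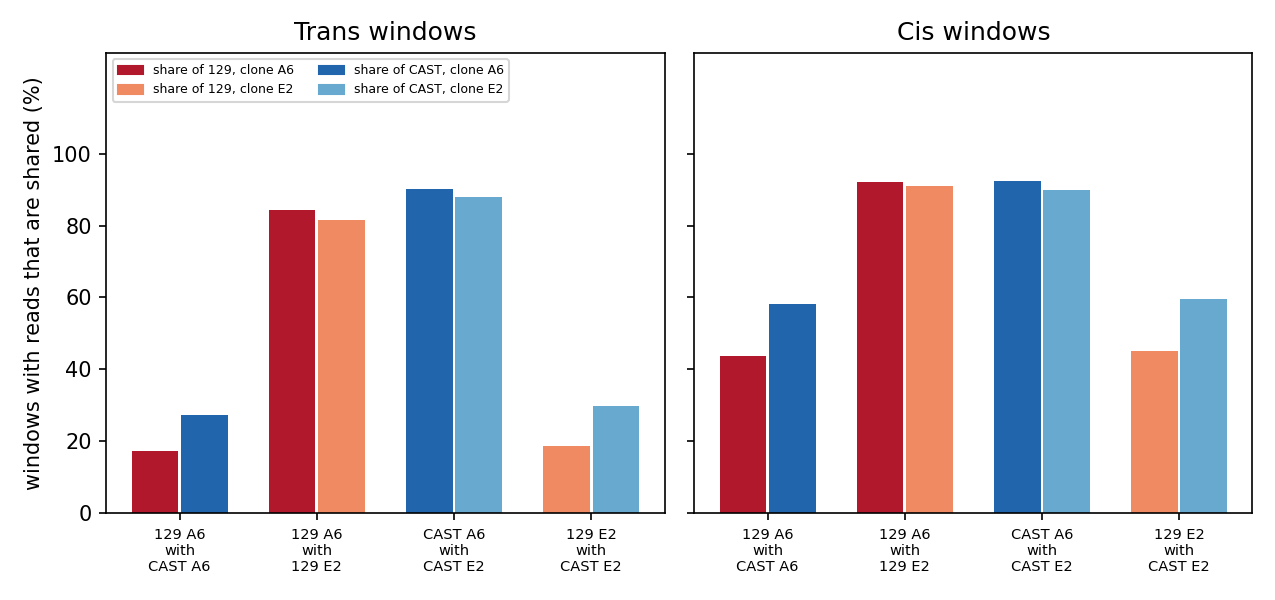
Share of the windows with reads (y axis, percent) that 2 columns have in common, as bars coloured by the column whose windows are the denominator, for trans windows (left) and cis windows (right). The 2 clones share 81.4% to 90.3% of their trans windows on the same allele, while the alleles of 1 clone share 17.4% to 29.8%.

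The cis share of the signal was nearly the same on both alleles. Chromosome 16 beyond 50 kb from the bait held 23.8% (A6) and 24.4% (E2) of the autosomal signal of the 129 columns. For CAST it held 23.9% and 24.2%. The values of the alleles overlapped, at 24.1% ± 0.41 for 129 and 24.03% ± 0.17 for CAST (SD, n = 2). Clone A6 gave a log2 ratio of 129 to CAST of -0.0064 and E2 one of 0.014, and their mean was 0.0036 ± 0.014. In the fit over all 19 autosomes, with 1 spread pooled over them, limma gave chromosome 16 an adjusted p of 0.96. An exact sign-flip test of 2 pairs cannot give a p below 0.5. In recovered reads A6 had 23.8% (95% Wilson interval 23.7 to 23.8%) on 129 and 24.4% (24.3 to 24.4%) on CAST. E2 had 24.4% (24.3 to 24.4%) and 24.7% (24.7 to 24.8%). Undoing the running mean thus put CAST slightly higher in both clones, with a log2 ratio of -0.028 ± 0.009. edgeR on these reads called chromosome 16 lower on 129 (log2 -0.027, adjusted p = 7.4e-07).

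The deletions themselves touch this share, since they remove windows near the bait from 129. With the labelled intervals left out of both alleles, the log2 ratio was 0.036 ± 0.016 in the deposited values and 0.052 ± 0.024 in the recovered reads, an alternative added after the data were seen. Without 1 Mb on both sides of the bait the cis share was 16.2% and 15.8% on 129 against 15.8% and 14.99% on CAST, a log2 ratio of 0.060 ± 0.021.

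Other ways of counting moved the cis share in opposite directions. Counted as windows with reads, chromosome 16 held 9.48% and 9.29% of the windows on 129 against 10.998% and 11.025% on CAST, a log2 ratio of -0.23 ± 0.02. In windows read on both alleles it held 46.6% and 46.8% of the reads on 129 against 41.9% and 40.8% on CAST, a log2 ratio of 0.18 ± 0.03. In each of these counts the alleles did not overlap, whereas they did in the deposited signal. The difference between the alleles in cis share thus had no stable sign.

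Per Mb, chromosome 16 stood far above the other autosomes on both alleles. Its signal was 2384 and 2444 RPM per Mb on 129 and 2340 and 2365 on CAST, in A6 and E2, against 317 and 315 on 129 and 309 and 308 on CAST over all trans chromosomes. The ratio of cis to trans per Mb was 7.53 and 7.77 on 129 and 7.57 and 7.67 on CAST. The CAST values lie between the 129 values, so the alleles could not be told apart by this ratio.

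The equal totals hid a different distribution over distance. From 0.05 to 0.5 Mb from the bait, the 129 columns held 6.75% and 7.996% of the autosomal signal and the CAST columns 8.33% and 9.52%, a log2 ratio of -0.28 ± 0.04 (SD, n = 2). The ranges of the alleles do not overlap there. In A6 and in E2 the 129 value was the lower one. This class holds the 2 deleted intervals over Morc1, where 129 has almost no reads. From 0.5 to 2 Mb the order was the opposite, with 4.23% and 4.08% on 129 against 2.72% and 2.67% on CAST, a ratio of 0.63 ± 0.02. From 2 to 10 Mb the shares were 4.14% and 3.82% against 3.70% and 3.57%, a ratio of 0.13 ± 0.05. Beyond 10 Mb they were 8.68% and 8.48% against 9.16% and 8.39%, and the clones differed in sign (-0.078 in A6 and 0.015 in E2).

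By side, the near class split. Upstream, toward lower coordinates, 129 held 2.58% and 2.86% against 1.55% and 1.94% on CAST from 0.05 to 0.5 Mb (log2 ratio 0.65 ± 0.12). Downstream, where the deleted intervals lie, it held 4.18% and 5.14% against 6.78% and 7.58% (-0.63 ± 0.10). From 0.5 to 2 Mb 129 was higher on both sides, by 0.45 ± 0.03 upstream and 0.85 ± 0.10 downstream. From 2 to 10 Mb the clones had opposite signs upstream (0.21 in A6 and -0.093 in E2), and downstream 129 was higher in both (0.20 ± 0.14). Beyond 10 Mb the sides again went opposite ways, at -0.45 ± 0.09 upstream and 0.25 ± 0.05 downstream, and they nearly cancelled in the sum.

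As a share of the signal in windows read on both alleles, 129 stayed higher from 0.5 to 2 Mb, at 0.93 ± 0.05. Next to the bait this share gave -0.057 ± 0.036. Trans signal in these windows was lower on 129 (190198 and 196156 RPM against 271387 and 289914), which raises its cis shares. In RPM, these windows next to the bait held 61507 and 72948 on 129 against 85365 and 99052 on CAST. From 0.5 to 2 Mb they held 35429 and 33506 against 23836 and 23888. A window counted here when each allele had a read in either clone, so stray 129 reads can keep deleted windows. Next to the bait CAST kept 85365 of its 86439 RPM from recovered reads in A6 and 99052 of 99717 in E2. The values there thus still include sequence deleted on 129. With each window capped at the 99th percentile of the windows with reads in its column, the ratio from 0.5 to 2 Mb was 0.22 ± 0.03. Windows with reads numbered 193 and 197 on 129 and 157 and 160 on CAST at this distance. As a share of each column's windows with reads these gave -0.34 ± 0.01, the opposite sign to the share of reads.

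Relative to trans, signal per Mb from 0.05 to 0.5 Mb was 233 and 278 times the trans level on 129 and 288 and 330 times on CAST. It was 43.8 and 42.6 times against 28.1 and 27.7 times from 0.5 to 2 Mb, and 8.02 and 7.46 times against 7.18 and 6.96 times from 2 to 10 Mb. Beyond 10 Mb it was still 3.44 and 3.39 times on 129 and 3.64 and 3.35 times on CAST. Signal thus stayed above the trans level at every distance class and on both alleles.

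**Figure D2:**
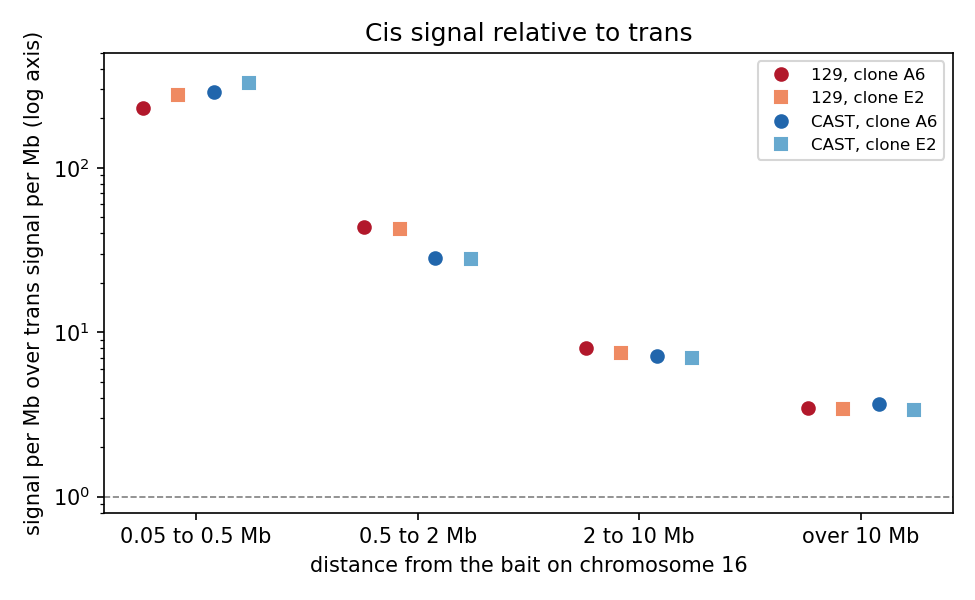
Signal per Mb on chromosome 16 divided by the trans signal per Mb of the same column (y axis, log scale) in 4 distance classes from the bait (x axis), with 1 point per allele and clone and a dashed line at the trans level. From 0.5 to 2 Mb the 129 points (43.8 and 42.6) lie above the CAST points (28.1 and 27.7), and beyond 10 Mb all 4 points lie between 3.35 and 3.64.

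In 1-Mb bins along chromosome 16, limma called 0 of 95 bins (0%), with 7 at an unadjusted p under 0.05. The lowest adjusted p was 0.13. These bins were fitted together with the trans bins and share their estimate of the spread. edgeR on recovered reads called 14 of the 95 (14.7%), 8 higher and 6 lower on 129. The bin at 49 to 50 Mb, which begins within 1 Mb downstream of the bait, held 9354 and 10360 RPM on 129 against 4195 and 4634 on CAST (limma log2 1.16, SE 0.52, adjusted p = 0.25; edgeR log2 1.08, adjusted p = 6.2e-05). The bin at 47 to 48 Mb, just upstream, held 17249 and 16657 against 11974 and 10187 (limma log2 0.62, adjusted p = 0.55; edgeR log2 0.59, adjusted p = 0.0029). The bait's own bin, at 48 to 49 Mb, held 69606 and 81170 against 81257 and 93331 (limma log2 -0.21, adjusted p = 0.87; edgeR log2 -0.43, adjusted p = 1.3e-06). This last bin holds the deleted intervals over Morc1, where 129 has almost no reads. Its lower value on 129 thus includes sequence missing from that allele. How far it differs without these intervals was not tested. These 3 bins are among the 14 that edgeR called. Both alleles of both clones had their highest bin there. In each column 3 to 6 of the 95 bins lay below the column's trans mean, and no bin did so in all 4 columns.

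**Figure D3:**
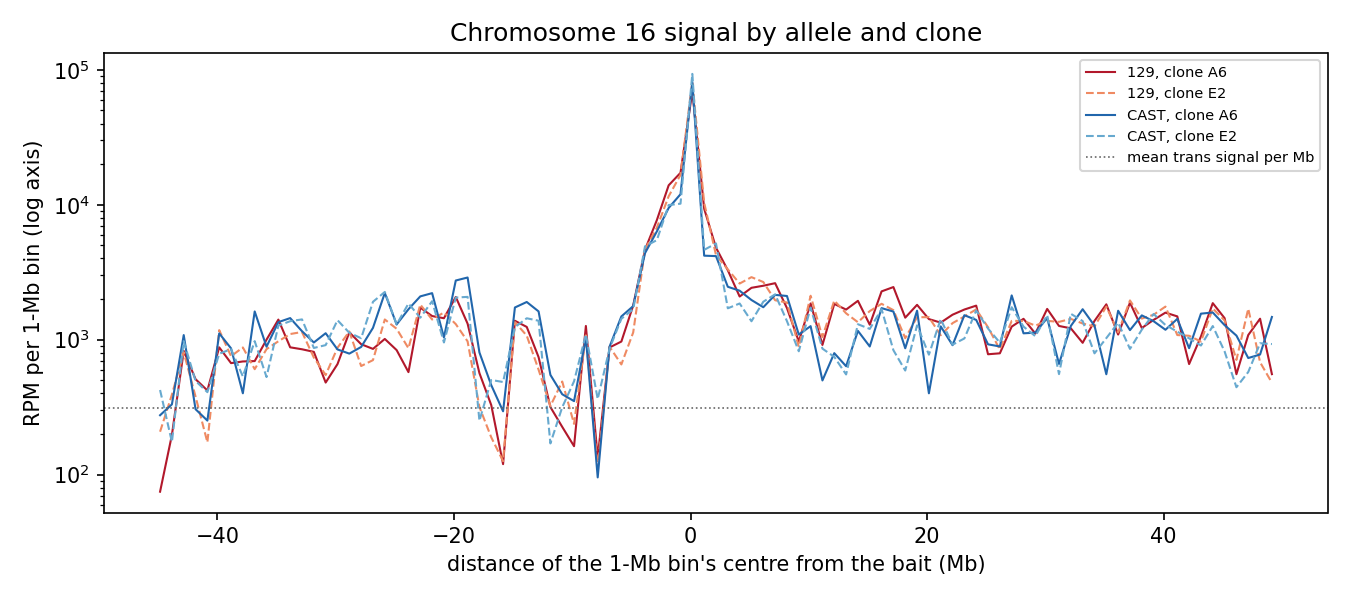
Signal per 1-Mb bin of chromosome 16 (y axis, RPM, log scale) against the distance of the bin's centre from the bait (x axis, Mb), with 1 line per allele and clone and a dotted line at the mean trans signal per Mb. All 4 lines peak in the bait's own bin and stay above the trans level over most of the chromosome.

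Trans signal was spread over the other autosomes nearly in proportion to their length. Across the 18 chromosomes, the share of the signal correlated with length by a Pearson r of 0.94 and 0.95 on 129 and 0.93 and 0.95 on CAST, in A6 and E2. These points share a library and its depth. Per Mb, the chromosomes ranged from 268 to 375 RPM on 129 and from 246 to 382 on CAST in A6, and from 262 to 365 and from 248 to 363 in E2. The coefficient of variation over the 18 was 9.21% and 8.25% on 129 and 10.2% and 9.23% on CAST. Gene density did not order them: signal per Mb correlated with protein-coding genes per Mb by -0.099 and -0.09 on 129 and 0.033 and 0.054 on CAST.

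Chromosome 10 had the highest mean signal per Mb, at 375 and 365 RPM on 129 and 382 and 363 on CAST, and its alleles overlapped. Chromosome 14 had the lowest, at 268 and 262 on 129 and 246 and 265 on CAST, and its alleles overlapped as well. Signal per Mb over the 18 chromosomes correlated by a Pearson r of 0.85 between the clones on 129 and of 0.73 on CAST. Between the alleles it was 0.72 in A6 and 0.44 in E2, and the 129 column of E2 correlated by 0.79 with the CAST column of A6.

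**Figure D4:**
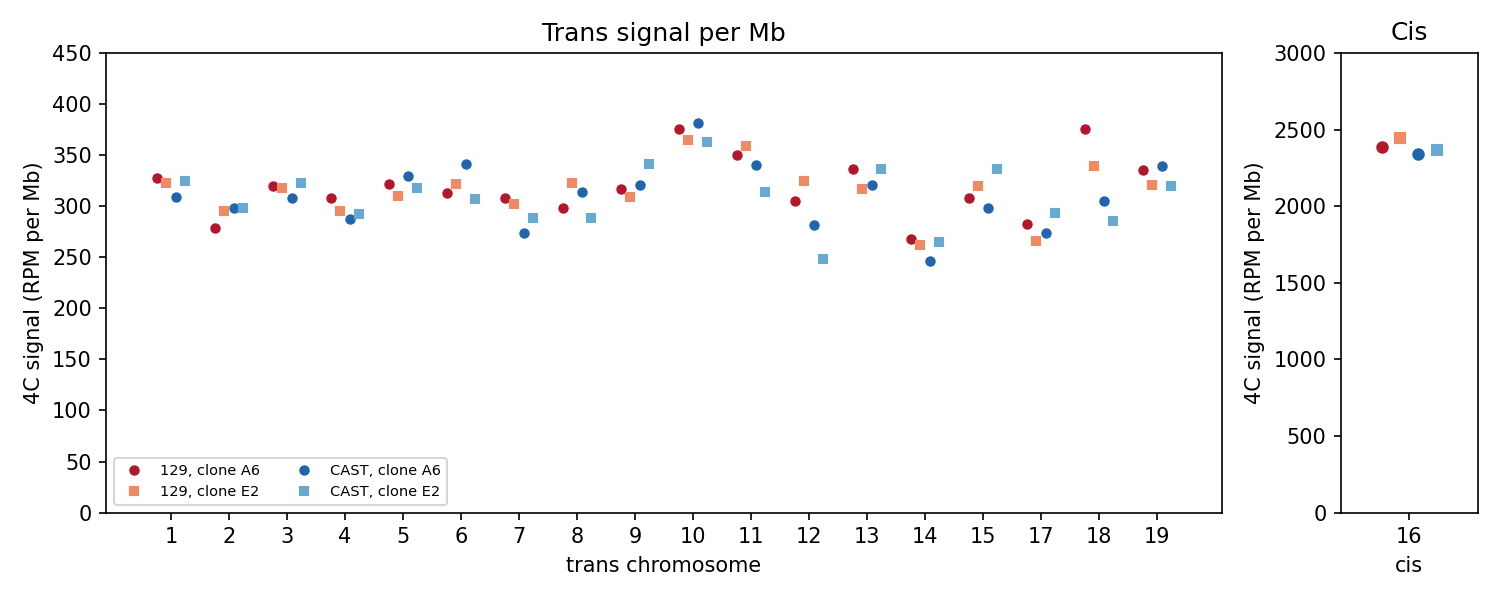
Signal per Mb (y axis, RPM) of the 18 trans autosomes (left) and of chromosome 16 beyond 50 kb from the bait (right, on its own scale), with 1 point per allele and clone. Trans chromosomes lie between 246 and 382 RPM per Mb, with chromosome 10 highest and chromosome 14 lowest by the mean, while chromosome 16 lies between 2340 and 2444.

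Of the 18 trans autosomes, 4 had the higher share on the 129 allele of both clones. CAST was higher in both for 5, and the remaining 9 had opposite signs in A6 and E2. The log2 ratios ran from -0.16 to 0.27 in A6 and from -0.18 to 0.35 in E2. The ratios of the clones correlated by a Pearson r of 0.32 and a Spearman rho of 0.18 across the 18 chromosomes. limma called 2 of the 19 autosomes, both higher on 129 and none lower (10.5% called), and these were chromosomes 12 and 18. It gave all 19 the same SE of 0.068, from a spread pooled over them. Its p-values thus do not measure how far the clones differ on any single chromosome.

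Chromosome 18 held 3.47% and 3.13% of the autosomal signal on 129 and 2.88% and 2.69% on CAST, in A6 and E2. The alleles did not overlap. Clone A6 gave a log2 ratio of 0.27 and E2 of 0.22, with a limma log2 of 0.24 (SE 0.068, adjusted p = 0.037), and edgeR on recovered reads also called it (log2 0.25, adjusted p = 0.046). In windows read on both alleles the log2 was -0.0070 (adjusted p = 0.92), with opposite signs in the clones (-0.071 in A6 and 0.057 in E2).

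Chromosome 12, which carries the de novo DNA methyltransferase gene Dnmt3a near its start, held 3.73% and 3.97% on 129 and 3.53% and 3.10% on CAST. The alleles did not overlap, but the ratio was 0.08 in A6 and 0.35 in E2, an SD of 0.19 (limma log2 0.22, pooled SE 0.068, adjusted p = 0.043). Most of the difference therefore sat in E2, since in A6 chromosomes 7 and 14 were higher, at 0.13 and 0.09. edgeR did not call it (log2 0.23, adjusted p = 0.13), and in windows read on both alleles the adjusted p was 0.21. Leaving out the 1-Mb bin that adds most to the difference changed neither direction, with mean log2 ratios of 0.20 ± 0.20 for chromosome 12 and 0.22 ± 0.04 for chromosome 18.

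The bins of these chromosomes are parts of the sums compared above, so they are no separate support. On chromosome 12, 55 of 114 bins were higher on 129 in both clones (48.2%) and 26 on CAST in both, with a median bin log2 of 0.46. On chromosome 18, 36 of 88 bins were higher on 129 (40.9%) and 19 on CAST, with a median of 0.31. Chromosomes 11 and 8, which were not called, came close to this share, at 39.5% and 38.1%, with medians of 0.21 and 0.031. Over all 2278 trans bins, 799 were higher on 129 in both clones (35.1%) and 686 on CAST (30.1%), with a median of 0.066. The number of windows with reads was also higher on 129 here. On chromosome 12 it was higher by a log2 of 0.13 in A6 and 0.15 in E2, as a share of all windows with reads, and on chromosome 18 by 0.09 and 0.06. This was not particular to the called chromosomes. Chromosomes 14, 3 and 4 had mean values of 0.087, 0.081 and 0.071, beside 0.075 on chromosome 18. Their signal ratios were 0.019, -0.018 and 0.024. The part of the window numbers in the result was not tested.

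Counted as windows with reads, limma called 11 of 19, 8 higher and 3 lower on 129, and the ratios of the clones correlated by an r of 0.89 over the 18 trans autosomes. Since the clones share 81.4% to 90.3% of their trans windows on an allele, these counts come from nearly the same windows in both clones, and their likeness is no independent support. The 3 lower ones were chromosomes 16, 9 and 19, at log2 values of -0.23, -0.10 and -0.13. Of these, chromosome 16 had a log2 ratio of 0.0036 in signal, chromosome 9 of -0.11 (-0.050 in A6 and -0.18 in E2) and chromosome 19 of -0.037.

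**Figure D5:**
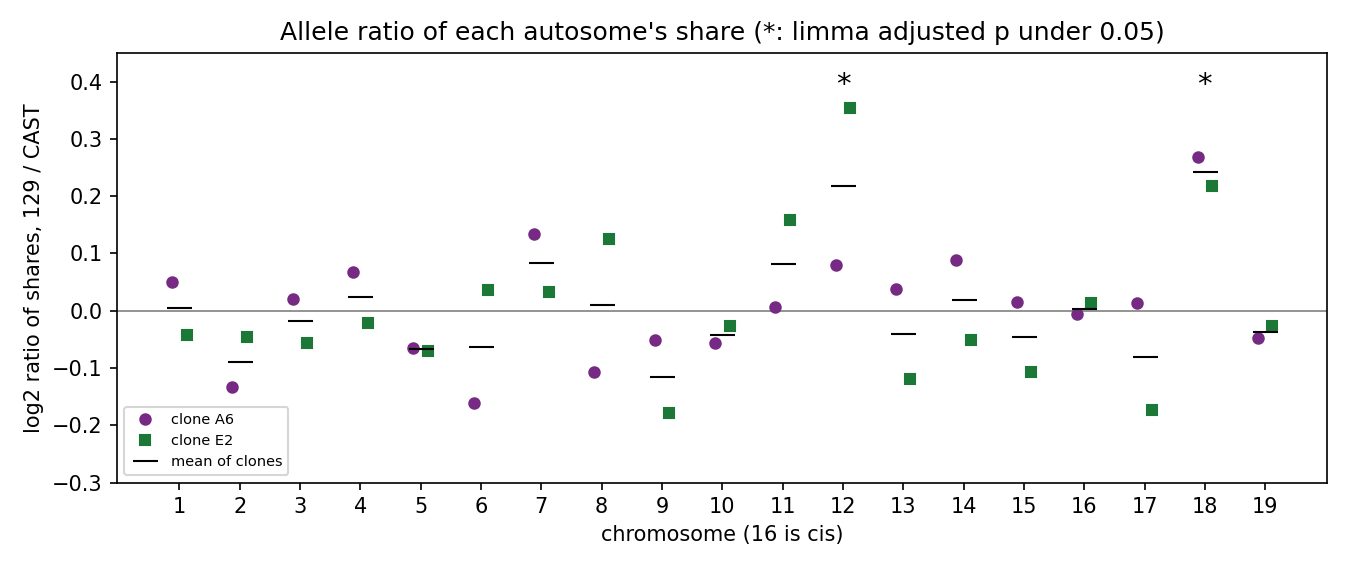
Log2 ratio of the 129 to the CAST share of the autosomal signal (y axis) for each autosome (x axis), with a circle for clone A6, a square for clone E2, a bar for their mean and an asterisk where the limma adjusted p was under 0.05. Chromosomes 12 and 18 carry asterisks, and the 2 clones agree closely on 18 (0.27 and 0.22) but not on 12 (0.08 and 0.35).

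In 1-Mb bins of the trans chromosomes, limma called 102 of 2278 bins (4.48%), 76 higher on 129 (3.34%) and 26 lower (1.14%). Over all 2373 bins, cis included, these are 4.3%, 3.2% and 1.1%. edgeR called 104 of 2276 (4.57%). Over all bins, cis included, edgeR split its calls into 75 higher and 43 lower on 129, and 67 of its calls were shared with limma, all in the same direction. The called bins were sparse: their median signal was 155 RPM against 332 RPM for bins not called, with a median of 9 windows with reads on 129 and 3 on CAST, against 15.5 and 10. A single window held a median of 46.3% of the reads on 129 and 65.4% on CAST in the called bins, against 32.1% and 39.4%. No bin was called when each window was capped at the 99th percentile (448 of 2371 at an unadjusted p under 0.05), with a pseudocount of 50 (471 of 2373), or without the filter on low values (407 of 2462).

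The 5 bins with the highest ratios were filled on 129 and almost empty on CAST. The filter on low values took the mean over the 4 columns. On CAST alone their means were 0 to 4.44 RPM, below its limit of 10 RPM. They thus passed it through 129 only, and their calls are descriptions. The first, at 134 to 135 Mb of chromosome 2, holds Plcb1, a phospholipase C of receptor signalling, and Hao1. It had 307 and 368 RPM on 129 and 0.88 and 2.93 on CAST, in A6 and E2 (limma log2 4.87, SE 0.52, adjusted p = 0.0048). The deposited running mean can carry signal from just outside a bin, so low RPM values need not match the reads inside it. Its reads were 1469 on 129 and 6 on CAST over both clones, a 164-fold difference in depth-scaled reads (counting interval 75.1 to 447).

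On chromosome 12, the bin at 3 to 4 Mb holds Dnmt3a, Asxl2, a chromatin regulator of the Polycomb group, and Dtnb. It had 316 and 365 RPM on 129 against 4.54 and 4.34 on CAST (limma log2 4.60, adjusted p = 0.0048). At 144 to 145 Mb of chromosome 7, over the synaptic scaffold gene Shank2 and the chloride channel gene Ano1, the values were 160 and 417 against 3.03 and 1.86 (limma log2 4.44, adjusted p = 0.0061). The clones agreed in direction in both bins.

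At 69 to 70 Mb of chromosome 6, which holds no protein-coding gene, 129 had 217 and 176 RPM and CAST 0.05 and 0.33 (limma log2 4.33, adjusted p = 0.0057). CAST held 1 read over both clones against 840 on 129, a 562-fold difference with a counting interval of 100.6 to 22235. At 21 to 22 Mb of chromosome 15, over the cadherin gene Cdh12, 129 held 358 and 331 reads and CAST 0 and 0. Against a floor of 3 reads per library, 129 was at least 80.4-fold higher in A6 and at least 73.5-fold higher in E2. Of those 129 reads, a single window held 83.5% in A6 and 81.0% in E2. Over windows read on both alleles, only the Shank2 bin of these 5 kept a mean of at least 10 RPM. Its limma log2 there was 3.09 (adjusted p = 0.031), beside a median of -0.48 over all bins tested in such windows. The ratios of the others could not be checked in such windows.

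The 5 bins with the lowest ratios were higher on CAST, but not all were almost empty on 129. Those of chromosomes 8 and 7 held 162 and 83 reads on 129 over both clones, at 12.2-fold and 16.1-fold differences. Over windows read on both alleles, limma gave these a log2 of -5.17 and -3.31 (adjusted p = 0.013 and 0.025). The median over all bins tested in such windows was -0.48, so ratios there lean toward CAST. Those of chromosomes 3, 2 and 1 fell below a mean of 10 RPM in such windows and could not be checked there. Their means on 129 over all windows were 8.46, 0.46 and 2.91 RPM. They thus passed the filter on low values through CAST only, and their calls are descriptions. At 88 to 89 Mb of chromosome 3, a bin with 36 protein-coding genes that include Ash1l, a histone methyltransferase, 129 had 14.1 and 2.85 RPM and CAST 217 and 475 (limma log2 -4.24, SE 0.61, adjusted p = 0.0085). At 41 to 42 Mb of chromosome 2, inside Lrp1b, a lipoprotein receptor gene, 129 held 1 read in each clone and CAST 86 and 389 (limma log2 -3.71, adjusted p = 0.0096; a 355-fold difference, counting interval 97.7 to 2938). At 5 to 6 Mb of chromosome 8, over the bile acid transporter gene Slc10a2, the values were 22.2 and 47.0 RPM on 129 against 586 and 326 on CAST (limma log2 -3.38, adjusted p = 0.013).

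At 30 to 31 Mb of chromosome 1, over Phf3 and the phosphatase gene Ptp4a1, 129 had 1.39 and 4.43 RPM and CAST 110 and 98.6 (limma log2 -3.15, adjusted p = 0.012). At 106 to 107 Mb of chromosome 7, over the interferon-inducible GTPase gene Gvin1 and a cluster of olfactory receptors, they were 27.5 and 11.97 against 117 and 471 (limma log2 -3.10, adjusted p = 0.032). edgeR did not call this last bin (adjusted p = 0.072), and it called the other 9 named ones.

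The trans bins with the most signal behaved otherwise. The highest by the mean, at 55 to 56 Mb of chromosome 15 over Sntb1, Col14a1 and the mTOR inhibitor gene Deptor, had 1152 and 856 RPM on 129 and 919 and 866 on CAST, and the clones differed in sign (limma log2 0.15, adjusted p = 0.91). At 15 to 16 Mb of chromosome 1, over the potassium channel gene Kcnb2, 129 had 1144 and 1037 and CAST 569 and 654 (limma log2 0.83, adjusted p = 0.41), and 1 window held 85.5% and 73.2% of the 129 reads. At 64 to 65 Mb of chromosome 11 and at 57 to 58 Mb of chromosome 4 CAST was higher in both clones, with limma log2 values of -0.69 and -1.28 (adjusted p = 0.52 and 0.21). At 3 to 4 Mb of chromosome 17, over Tiam2, an activator of Rac, and Scaf8, 129 had 225 and 397 and CAST 1515 and 1322 (limma log2 -2.20, adjusted p = 0.051; edgeR adjusted p = 0.0063). None of these 5 bins passed the threshold in limma, and edgeR called those of chromosomes 17 and 4 (adjusted p = 0.026 for the latter).

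Bin values were more alike between clones than between alleles. Over the 2278 trans bins, log2(RPM + 10) correlated by a Pearson r of 0.71 between the clones on 129 and 0.70 on CAST, against 0.46 between the alleles of A6 and 0.41 between those of E2. Over the 95 cis bins these values were 0.95, 0.91, 0.86 and 0.84. Bins within an allele share the set of windows that hold reads, as given above, so these are descriptions.

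Gene lists were read as the signal over each gene and 250 kb on both sides, on the trans chromosomes. Over all 19982 protein-coding genes there, 18781 had signal in every column. Of these, 35.6% were higher on 129 in both clones and 30.1% on CAST, with a median log2 ratio of 0.10. Of the 19490 with a tested bin, 808 lay in a bin called higher and 265 in one called lower. Neighbouring genes share windows and are not independent.

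Of 28 genes of the pluripotency network, 14 were higher on 129 in A6 and E2, 6 were higher on CAST and 8 had opposite signs, with a median log2 ratio of 0.67. By the bin at the gene's middle, 1 of 28 was called higher and 0 lower, beside 808 and 265 of 19490 for all genes. This count does not set the list apart from all genes. The called gene was Fgf4, a growth factor gene that primes exit from pluripotency, in the Shank2 bin of chromosome 7 given above. Fgf4 is named here after its value was seen. Its surroundings held 54.9 and 223 RPM on 129 and 0.76 and 1.10 on CAST, from 1 and 2 CAST reads. Around Nanog, a core pluripotency factor, 129 had 433 and 233 RPM and CAST 68.9 and 104, a log2 ratio of 1.91 ± 1.05 (SD, n = 2). Its neighbour Dppa3, a maternal-effect gene whose surroundings overlap those of Nanog, was at 1.80 ± 1.11. Sox2, the partner of Oct4, went the other way, with 125 and 149 against 306 and 422, a ratio of -1.40 ± 0.15. Lefty1, a Nodal antagonist, was at -1.39 ± 0.01. The bins of these 4 genes did not pass the threshold (adjusted p = 0.64 for Nanog and Dppa3, 0.31 for Sox2 and 0.27 for Lefty1).

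Dppa2 and Dppa4 are known activators of Dux and, through it, of genes of the 2-cell embryo, and 12 such genes were read. Only 7 had signal in every column, of which 1 was higher on 129, 3 were higher on CAST and 3 had opposite signs in the clones (median log2 ratio -0.047). Duxf3, the Dux gene itself, had 303 and 231 RPM on 129 and 439 and 533 on CAST, a ratio of -0.87 ± 0.48 (bin adjusted p = 0.93). Gm8300, a gene of the same list, was at -2.04 ± 1.25 (bin adjusted p = 0.094). Of 11 genes with a tested bin, 1 was called higher on 129, beside 808 of 19490 for all genes. A single gene does not set the list apart. The called gene was Zfp352, named after its value was seen, with 39.3 and 104 RPM on 129. CAST was at 0 in A6 and 1.61 in E2, from 0 and 3 reads (bin limma log2 2.68, adjusted p = 0.022).

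Of 20 developmental regulators, 19 had signal in every column: 5 were higher on 129 in both clones, 5 on CAST, and 9 split the clones, with a median log2 ratio of 0.53. The bin of T, the mesoderm factor brachyury, was the 1 of 20 called (higher on 129, limma log2 2.21, adjusted p = 0.044). For all genes, 808 of 19490 lay in a bin called higher, so this count does not set the list apart. The surroundings of T had 300.1 and 107 RPM on 129 and 68.0 and 13.6 on CAST. Nkx2-5, a heart factor, was at 1.40 ± 0.51, Sox1, an early neural factor, at -2.05 ± 1.00 and Hoxd13, a limb and tail Hox gene, at -1.60 ± 0.09. Of 15 housekeeping genes, 3 were higher on 129 in both clones, 5 on CAST and 7 split, with a median of 0.026 and 0 bins called in limma. Eef1a1, a translation factor gene, was at 1.21 ± 0.18 and B2m, a subunit of class I MHC, at 1.19 ± 1.24.

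Olfactory and vomeronasal receptor genes lie in large clusters. Of 1422 on the trans chromosomes, 1132 had signal in every column, and 41.7% of these were higher on 129 in both clones and 28.6% on CAST, with a median log2 ratio of 0.32. Their median signal was 75.7 and 88.1 RPM on 129 and 56.1 and 64.8 on CAST, against 141 and 144 and 127 and 129 for all genes. By bin, 59 of the 1354 with a tested bin lay in a bin called higher and 56 in one called lower, and these calls come from 6 and 3 of 118 bins (7.63%, beside 4.48% of all trans bins). For all protein-coding genes the corresponding counts, given above, are 808 and 265 of 19490. Vmn2r9 and Vmn2r8, neighbours on chromosome 5, were at 4.26 ± 2.25 and 4.00 ± 2.25, and Vmn1r94 and Vmn1r93, neighbours on chromosome 7, at -5.29 ± 1.45 and -5.14 ± 1.43. Each pair shares its windows and counts as 1 locus.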

How the data were processed

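The 4C libraries of clones A6 and E2 were deposited by the authors as RPM, scaled to the reads of each allele column, in 5-kb windows of mm10 (per the file headers). Bowtie2, mm9 and mm10 are named, per the submitters' processing notes. The aligner's version, the read filters and the allele assignment were not given in the sources used here. The deposited RPM are running means over 30 windows that continue across chromosome ends and across the bait gap. They were whole multiples of 1 step, so the running mean was undone, and 100% of values came out as whole reads within 0.01, with 0 windows below 0.

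Windows of chromosomes 1 to 19 over 50 kb from the bait were summed per chromosome and per 1-Mb bin. limma 3.58.1 in R 4.3.3 was fitted on log2 shares of the 19 autosomes, and on log2(RPM + 10) of the bins with at least 100 windows and a mean of at least 10 RPM, blocked by clone, with p-values adjusted after Benjamini and Hochberg over all features at 0.05. A fold change on the log2(RPM + 10) scale understates the change of low bins. The 2 columns of a clone come from 1 library, which is the source of the pairing. Over 2373 bins the clone deviations of the alleles correlated by an r of 0.021. edgeR 4.0.16 on recovered reads was an alternative and called 118 of 2371 bins. In simulated counts of 2370 bins, where 200 were given a log2 change of 1, limma found 0.3% of them. At a log2 of 2 it found 35.8%, with 4.4 false calls per run, and without any change it made 0 calls. These counts were drawn as bin totals with 1 common dispersion and independent columns. They do not model single windows that hold most reads, or windows read on 1 allele only. The false calls in the real bins thus cannot be read from them. In simulated shares of the 19 autosomes it recovered 93.3% of those changed by a log2 of 0.5, with 0.3 false calls per run. That change is larger than the 0.22 and 0.24 of chromosomes 12 and 18. Genes came from RefSeq on GRCm38.p6, the same assembly as mm10. All genes of the 4 short lists matched a symbol or synonym. The members and lists were chosen with earlier results of these data known. Named were all autosomes, the 5 highest and 5 lowest called trans bins with the same direction in both clones, the 5 trans bins with the highest mean signal, and the 2 highest and 2 lowest genes of each list with at least 10 reads in every column; some of these are not reported here. Fgf4 and Zfp352 fall short of 10 reads on CAST and were named outside this rule, as the called genes of their lists. Sums, overlaps and figures were made in Python 3.11.15 (matplotlib 3.10.9). The inbred libraries were not used.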

Additional observations from a re-analysis of the deposited data

Results flagged for a closer look

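Chromosome X lies outside the autosomes compared here, and its reads departed from theirs. The 129 columns held 7.21% of the chromosome X reads in A6 (2735 on 129 and 35211 on CAST; 95% Wilson interval 6.95 to 7.47%) and 7.67% in E2 (3375 and 40637; 7.42 to 7.92%). Over the autosomes they held 60.2% in A6 and 60.4% in E2, and single autosomes ran from 57.6% to 64.6% in A6 and from 57.6% to 66.3% in E2. Chromosome Y held 0 reads in all 4 columns. The cause was not tested.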

How the results depend on the processing

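The log2 ratio of the cis share, 0.0036 in the deposited values and from -0.0064 to 0.014 with either clone left out, was -0.028 with the running mean undone, 0.18 over windows read on both alleles, -0.23 as windows with reads and -0.015 with windows capped. It was 0.060 without 1 Mb around the bait, 0.036 without the deleted windows, 0.052 when these were also left out of the recovered reads and 0.040 with chromosomes X and Y in trans. The 2 called autosomes became 0 over windows read on both alleles (4 at an unadjusted p under 0.05), where chromosome 18 was at -0.0070 with clones of opposite sign, and 11 as windows with reads. The 102 called bins became 0 with a pseudocount of 50, 0 without the filter, 0 with windows capped, 55 in bins of 2 Mb, 182 when scaled to the trans signal, and 233 over windows read on both alleles (60 higher and 173 lower on 129). Over windows read on both alleles the median log2 of all 2147 tested bins was -0.48, against 0.062 in the main fit. Ratios of bins in that setting thus lean toward CAST. Without the replicate block, limma called 87 bins and 2 autosomes, so the pairing changed no count by over 1.5 times. The cause of these changes was not tested. With 1 clone left out no residual degrees of freedom remain, so autosomes and bins then have values and no test. Few windows stand behind a bin: the median was 15.5 windows with reads on 129 and 9.5 on CAST.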

Other observations

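Trans bins were also read by gene density. Bins with no protein-coding gene (199) had a mean of 290.1 and 310.4 RPM on 129 and 278 and 271 on CAST, in A6 and E2. Bins with 6 to 15 genes (787) had 353 and 338 on 129 and 343 and 338 on CAST, and bins with over 15 genes (405) had 288 and 294 on 129 and 274 and 293 on CAST. In all 4 columns the mean was highest in bins with 6 to 15 genes, ahead of those with 1 to 5 genes (334 and 335 on 129, 332 and 327 on CAST). The log2 ratio of 129 to CAST was 0.13 ± 0.09 (SD, n = 2) in bins with no gene, 0.023 ± 0.015 with 1 to 5 genes, 0.019 ± 0.028 with 6 to 15 and 0.039 ± 0.048 with more. Bins with over 15 genes also had fewer windows with reads, a mean of 12.4 and 12.8 on 129 against 14.9 and 15.4 with 6 to 15 genes, and the part of this in the result was not tested.

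Chromosomes 12, 15, 18 and 19 carry ribosomal DNA arrays in laboratory mice, as does chromosome 16. Over these 4, the signal was 328 and 326 RPM per Mb on 129 and 301 and 293 on CAST. Over the other 14 trans chromosomes it was 314 and 312 on 129 and 310.4 and 311 on CAST. The 4 include chromosomes 12 and 18, called higher on 129 in the comparison of shares, so this difference restates theirs. The other members had mean log2 ratios of 129 to CAST of -0.046 (chromosome 15, clones of opposite sign) and -0.037 (chromosome 19, higher on CAST in both clones).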
